A study of Mus musculus with 11 samples.

Results

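Transcripts of 40 genes of the cell cycle were measured by RNA sequencing in CD4+ T cells from mouse lymph nodes. The genes were chosen by symbol through their Ensembl identifiers, and all 40 were found among the 55471 genes of the count table. By role, 23 of them act in mitosis and 17 act in DNA replication or at the entry into it. The 11 libraries came from C57BL/6 mice. The WT group held 5 libraries, and the GLC group held 6 libraries of the genotype Pggt1bfl/flLys-Cre, in which Pggt1b is deleted conditionally in macrophages. Lys-Cre is driven from the lysozyme locus, which is active in myeloid cells, so the deletion is not aimed at the T cells that were sequenced, and mice of this genotype are known to develop arthritis. Cells were taken from inguinal and axillary nodes, freed of other cells with beads that leave CD4+ cells untouched, and kept in both groups for 2 h with concanavalin A at 1.25 µg/ml, a lectin that activates T cells. The sources used here give neither age nor sex. GLC replicate 78 was pooled from 2 mice, and no label says that the other libraries each come from a separate mouse, so p-values measure the spread between these libraries.

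A resting T cell holds its chromosomes unreplicated. On activation it first loads the MCM helicase ring onto replication origins, with the help of Cdc6 and Cdt1, then makes deoxynucleotides and copies its DNA behind the sliding clamp PCNA. Transcripts of the mitotic machinery accumulate later, in G2 and mitosis, so they mark cells that are dividing rather than cells about to start. In lymph nodes most CD4+ T cells rest, and a minority of activated and regulatory cells divide.

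Libraries held between 11308285 and 14620148 counts, with a mean of 13.9 M ± 0.675 M in WT (SD, n = 5) and of 12.1 M ± 0.652 M in GLC (SD, n = 6), so WT was sequenced more deeply. Levels are given as CPM, the count of a gene divided by the scaled size of its library in M counts. The T cell marker Cd4 was at a mean of 372 CPM in WT and 341 CPM in GLC. Of 10 CD4 T cell markers, Cd4 among them, 2 were higher in GLC. Their sum had means of 4457 CPM (WT) and 4319 CPM (GLC). It was lowest in GLC replicate 12 at 4015 CPM and highest in WT replicate 1 at 4729 CPM. Of the CD8 T cell markers, Cd8a had 13 counts over all libraries and Cd8b1 had group means of 10.4 CPM (WT) and 11.6 CPM (GLC). GLC replicate 9 had 633 counts of Y-linked genes, and every other library had at most 1. Xist, expressed in female cells, had 11 counts in GLC replicate 9 and between 2992 and 5943 in the others. By these transcripts GLC replicate 9 was male and the other libraries were female. Without GLC replicate 9 the median log2 fold change of the mitosis genes described below was 0.57 in place of 0.51. Pggt1b was at 39.3 ± 4.52 CPM in WT (SD, n = 5) and 49.1 ± 6.70 CPM in GLC (SD, n = 6), which does not check a deletion aimed at macrophages. Lyz2, the lysozyme gene, had 12 counts in WT and 0 in GLC, which allows up to 0.0407 CPM over the GLC group, and such limits cover counting error only.

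The 40 genes differed widely in level, with the helicase genes at the top and the mitosis genes among the low ones. Per kilobase of exon, so that long and short genes can be compared, Mcm6 had the highest mean level at 42.0 CPM per kilobase. Next came the clamp gene Pcna at 27.4 and Mcm4 at 26.7 CPM per kilobase. The other MCM subunits and Cdt1, the licensing factor that loads them, lay between 8.72 (Mcm2) and 19.4 CPM per kilobase (Mcm3). Mitosis genes lay below all of these. Their highest level was 5.45 CPM per kilobase for Incenp, the scaffold of the chromosomal passenger complex, and their lowest was 0.114 CPM per kilobase for Cenpf, a large kinetochore protein. The cells thus held transcripts of the helicase in quantity, and little of the late mitotic set such as Ccnb1 (cyclin B1) at 0.250 and Bub1 at 0.256 CPM per kilobase. Exon length is that of all annotated exons joined, which lowers the value of genes with rarely used long exons.

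**Figure D1:**
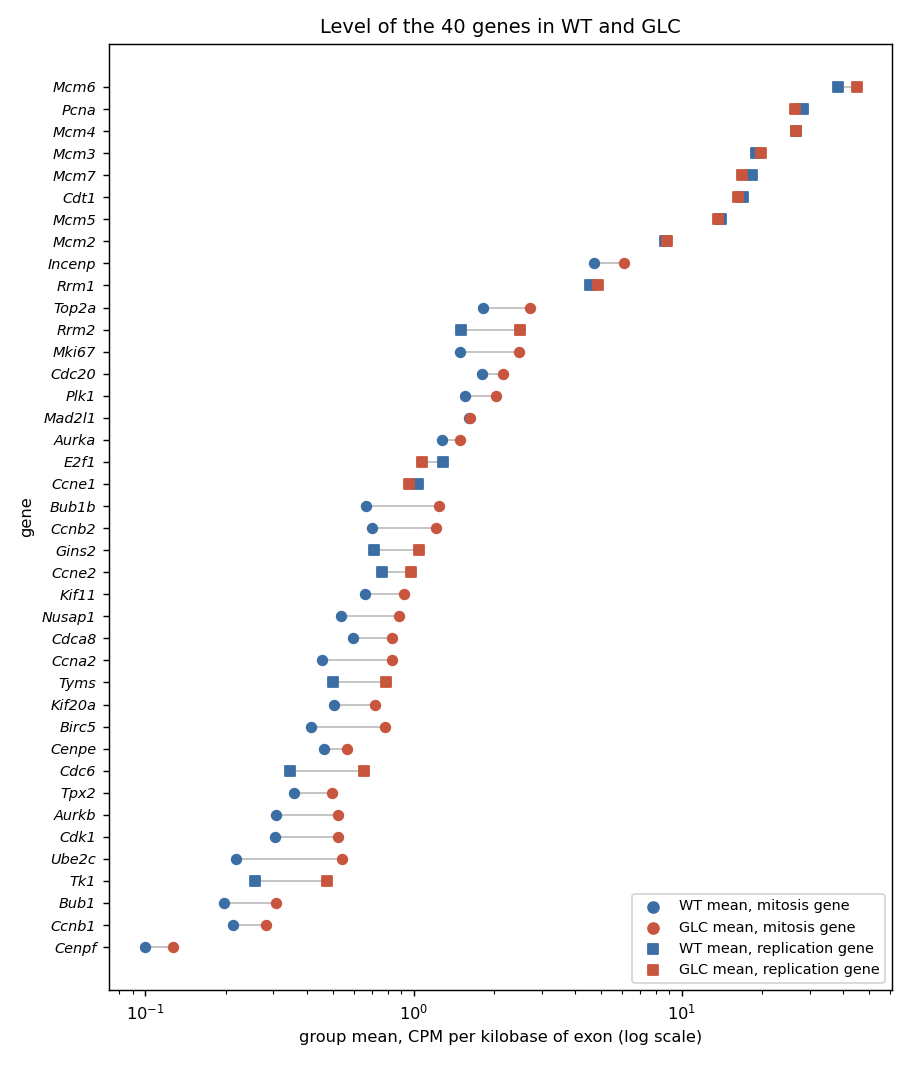
Mean level of each of the 40 genes in WT (blue, n = 5) and GLC (red, n = 6) in CPM per kilobase of exon, on a log scale, with circles for mitosis genes and squares for replication genes. The helicase subunits, Cdt1 and Pcna sit at the top, with group means from 8.63 (Mcm2, WT) to 44.98 (Mcm6, GLC), and the mitosis genes reach at most 6.07 in either group.

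No cell cycle gene separated GLC from WT past the threshold. The comparison asks whether CD4+ cells of mice whose macrophages lack Pggt1b hold other amounts of these transcripts. Of the 40 genes, 0 passed an adjusted p of 0.05 in edgeR's quasi-likelihood test, against 0% of the 12404 genes tested, and DESeq2 and limma-voom also called 0 of the 40. Over all genes DESeq2 called 2 and limma-voom called 0. The adjusted p was 0.9997 in edgeR for each of the 40. At an unadjusted p under 0.05, 7 of the 40 were higher in GLC (2.75% of all genes tested) and 0 were lower (1.79% of all genes tested). Of the 7, 2 were among the 23 mitosis genes and 5 among the 17 replication genes. For 0 of the 40 did the ranges of the groups stay apart, where 0.153% of all genes tested lay wholly higher and 0.177% wholly lower in GLC.

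Fold changes of the mitosis genes all pointed one way, and those of the replication genes did not. The log2 fold change of GLC against WT was above 0 for 23 of 23 mitosis genes and for 11 of 17 replication genes, against 49.9% of all genes tested. The median log2 fold change was 0.51 for mitosis genes and 0.06 for replication genes, with a median of 0.00 over all genes. Within the replication genes it was 0.70 for the 4 of nucleotide supply and 0.03 for the 9 of helicase loading and activation. These are descriptions of genes that share libraries and vary together, and none of the 23 passed the threshold. The median for mitosis genes was 0.31 without GLC replicate 12 and 0.84 without WT replicate 5, and for replication genes it was 0.04 without GLC replicate 78. Without GLC replicate 12, 22 of 23 mitosis genes and 11 of 17 replication genes were above 0. The count of genes with an unadjusted p under 0.05 went from 7 to 2 without WT replicate 2 or GLC replicate 12, to 4 without WT replicate 4 or GLC replicate 78, to 14 without WT replicate 5 and to 15 without GLC replicate 11. The share of all genes tested moved the same way, from 4.54% to 2.59% and 3.51% in the pair of fits that gave 2, to 3.90% and 2.97% in the pair that gave 4, and to 6.19% and 6.37% in those that gave 14 and 15.

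**Figure D2:**
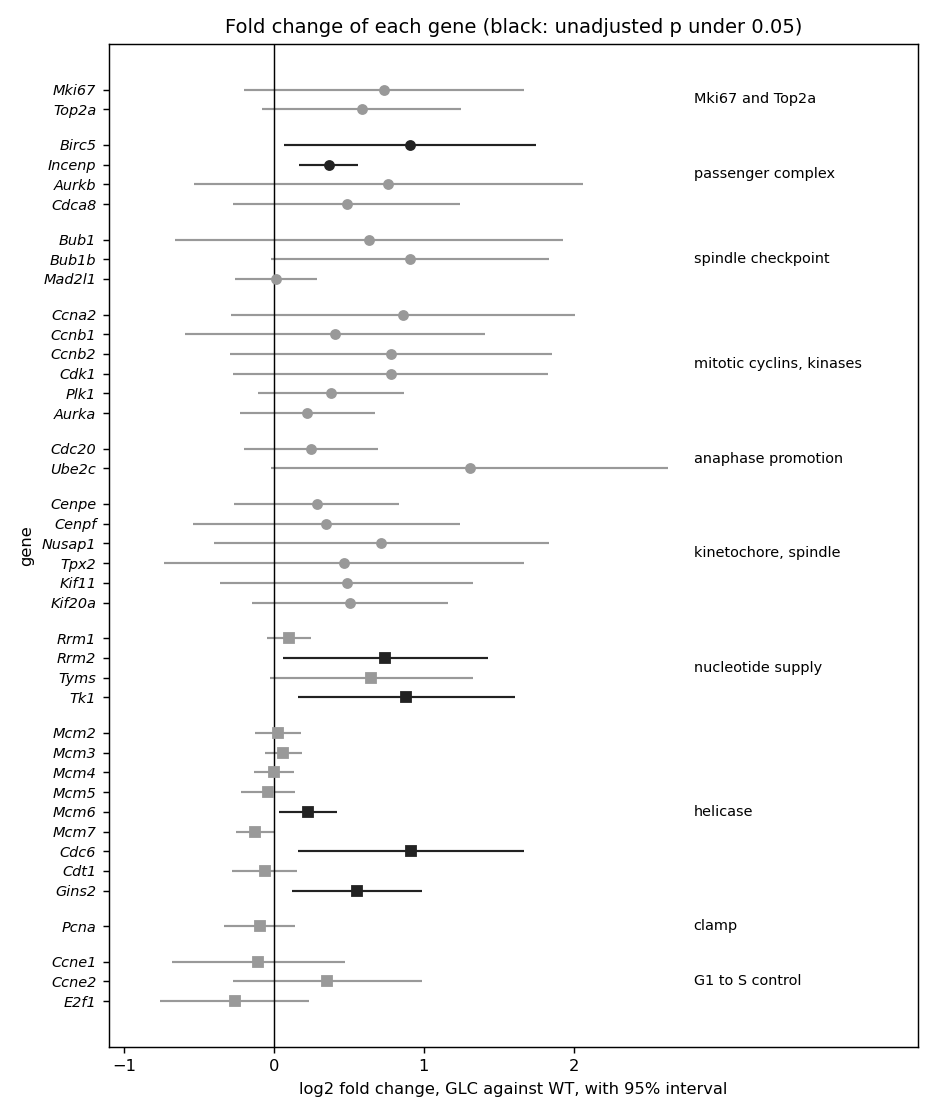
Log2 fold change of GLC against WT for each gene, with its 95% interval, grouped by role, with circles for mitosis and squares for replication genes. Black marks an unadjusted p under 0.05 and grey the rest. The 23 mitosis genes all lie to the right of 0, mostly with intervals that cross it, and the MCM subunits lie close to 0 with narrow intervals.

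The chromosomal passenger complex, which corrects faulty attachments of chromosomes to the spindle and then guides cell cleavage, held the gene of smallest p among the 40. Incenp (ENSMUSG00000024660, chromosome 19, positions 9872296 to 9899551, GRCm38) was at 18.1, 18.0, 22.9, 20.7 and 22.2 CPM in WT replicates 1 to 5. In GLC it ranged from 22.8 CPM in replicate 11 over a median of 26.8 to 28.6 CPM in replicate 12. The groups overlapped only at WT replicate 3 and GLC replicate 11, and 5 of 6 GLC libraries lay above every WT library. On the log2 scale the difference was 0.37 (SE 0.09, with a 95% interval from 0.17 to 0.56), from 20.4 ± 2.27 CPM (SD, n = 5) to 26.3 ± 2.18 CPM (SD, n = 6), with an unadjusted p of 0.00134 and an adjusted p of 0.9997 in edgeR. With any single library left out it lay between 0.32 and 0.42.

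Birc5 encodes survivin, the subunit that brings the complex to the centromere. It was at 1.02, 1.08, 1.42, 1.03 and 2.52 CPM in WT replicates 1 to 5 and ranged in GLC from 0.697 CPM in replicate 11 over a median of 2.86 to 4.00 CPM in replicate 12. GLC replicate 11 lay below every WT library, and 3 of 6 GLC libraries lay above all of them. The log2 fold change was 0.91 (SE 0.39, adjusted p = 0.9997 in edgeR).

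Aurkb, the kinase of the complex, was at 1.10, 0.430, 1.27, 0.237 and 1.497 CPM in WT replicates 1 to 5. In GLC it ranged from 0.0871 CPM in replicate 11 over a median of 1.51 to 3.85 CPM in replicate 12. GLC replicate 11 lay below every WT library, and 4 of 6 GLC libraries lay above the highest WT library (log2 fold change 0.76, SE 0.61, and 0.26 without GLC replicate 12). GLC replicates 6, 10 and 78 did so narrowly, at 1.502, 1.517 and 1.612 CPM. They held 19, 18 and 21 counts of Aurkb, against 22 in WT replicate 5 and 50 in GLC replicate 12. Cdca8, which encodes borealin, was at 2.19, 1.94, 3.11, 2.44 and 5.65 CPM in WT replicates 1 to 5 and between 2.28 CPM in GLC replicate 10 and 8.62 CPM in GLC replicate 12, with a GLC median of 3.61. Only GLC replicate 12 exceeded WT replicate 5 (log2 fold change 0.49, SE 0.35), and the value was 0.17 without GLC replicate 12 and 0.84 without WT replicate 5. Incenp had 3336 counts over all libraries, against 298 for Birc5, 180 for Aurkb and 535 for Cdca8, so its value rests on far more reads than those of its partners. Its spread was also smaller: the biological coefficient of variation, the relative spread between libraries beyond counting noise, was 0.109 for Incenp and 0.413, 0.657 and 0.392 for the others.

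**Figure D3:**
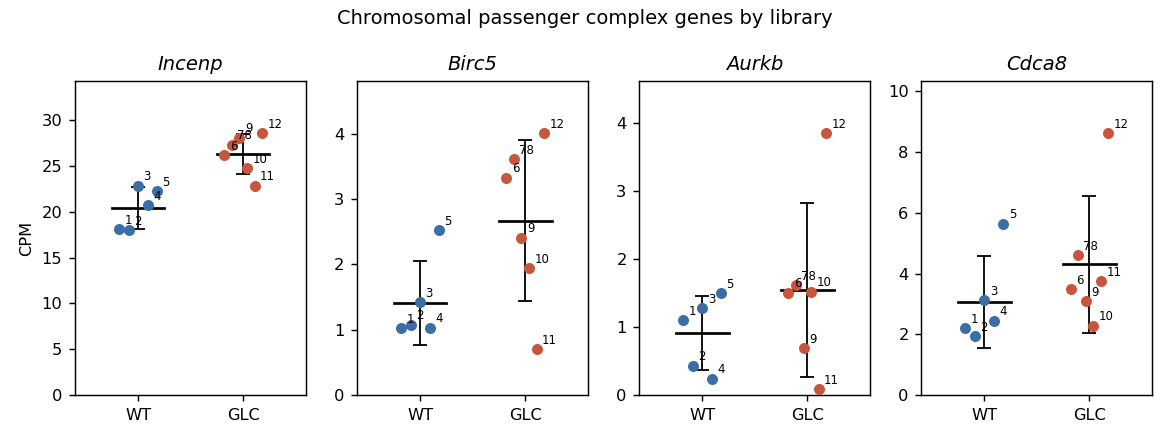
CPM of the 4 genes of the chromosomal passenger complex in each library, numbered by replicate, with group mean (bar) and SD (whiskers) for WT (n = 5) and GLC (n = 6). Incenp has both groups close together within themselves. GLC replicate 12 is the highest library for each of the 4 genes, at 28.6 CPM for Incenp. For Birc5, Aurkb and Cdca8 it is at 4.00, 3.85 and 8.62 CPM.

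Ubiquitin ligation that starts anaphase is served by Cdc20, an activator of the anaphase-promoting complex, and Ube2c, its conjugating enzyme. Ube2c had the largest fold change of the 40 and the fewest counts, 145 over all libraries. It was at 0.313, 0.0717, 0.637, 0.710 and 1.09 CPM in WT replicates 1 to 5, and ranged in GLC from 0.174 CPM in replicate 11 over a median of 1.25 to 3.46 CPM in replicate 12. Its log2 difference was 1.31 (SE 0.62, with a 95% interval from -0.02 to 2.63, adjusted p = 0.9997 in edgeR), and it was 0.81 without GLC replicate 12. Cdc20 was at 3.38 ± 0.847 CPM in WT (SD, n = 5) and 4.01 ± 0.725 CPM in GLC (SD, n = 6), a difference inside the spread of either group.

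Mki67, the proliferation marker that coats mitotic chromosomes, had a mean of 14.97 ± 8.79 CPM in WT (SD, n = 5) and of 24.9 ± 13.9 CPM in GLC (SD, n = 6). It spanned 4.88 CPM in WT replicate 2 to 28.2 CPM in WT replicate 5, and 6.01 CPM in GLC replicate 11 to 47.0 CPM in GLC replicate 12. The span within each genotype was therefore wider than the difference between the means (log2 fold change 0.73, SE 0.44, with 0.46 without GLC replicate 12 and 1.11 without WT replicate 5). Top2a, the topoisomerase that untangles sister chromatids, went from 9.54 CPM in WT replicate 2 to 23.1 CPM in WT replicate 5, and from 9.84 CPM in GLC replicate 11 to 42.6 CPM in GLC replicate 12 (log2 fold change 0.59, SE 0.31, and 0.36 without GLC replicate 12).

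Mitotic cyclins and kinases shared their highest library. For Ccna2 (cyclin A2), Ccnb1, Ccnb2 (cyclin B2), the kinase Cdk1 that they switch on, Plk1 and Aurka (kinases of centrosome and spindle), log2 fold changes lay between 0.22 (Aurka) and 0.86 (Ccna2), and GLC replicate 12 was the highest of all 11 libraries for each of the 6. Cdk1 was at 6.23 CPM there and at 0.348 CPM in GLC replicate 11. Plk1 was the one gene of this set whose WT mean was exceeded by 6 of 6 GLC libraries, at 3.41 ± 0.870 CPM in WT (SD, n = 5) and 4.45 ± 1.25 CPM in GLC (SD, n = 6). Its log2 fold change of 0.38 (SE 0.23) was 0.22 without GLC replicate 12, a fit in which Ccna2 was at 0.47, Ccnb1 at 0.06, Ccnb2 at 0.37 and Cdk1 at 0.31.

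Genes of the spindle checkpoint, which holds anaphase until all chromosomes are attached, did not share one pattern. Bub1b (BubR1) had a log2 fold change of 0.91 (SE 0.43) with its highest value, 8.78 CPM, in GLC replicate 6. Bub1, a kinase, had 0 counts in WT replicate 2, which allows up to 0.215 CPM, and a log2 fold change of 0.64 (SE 0.61), which was 0.31 without that library and 1.19 without WT replicate 5. Mad2l1, the inhibitor of Cdc20, was level at 13.5 ± 2.28 CPM in WT (SD, n = 5) and 13.7 ± 1.80 CPM in GLC (SD, n = 6), with a 95% interval of -0.26 to 0.29 on the log2 scale. It was the mitosis gene of smallest fold change, and its sign turned under 9 of 25 alternatives.

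Kinetochore and spindle genes, namely Cenpe (a kinetochore motor), Cenpf, Nusap1 and Tpx2 (microtubule-associated proteins) and the motors Kif11 and Kif20a, had log2 fold changes from 0.28 (Cenpe) to 0.72 (Nusap1), none with an unadjusted p under 0.05. Kif11, the motor that pushes spindle poles apart, went from 1.83 CPM in GLC replicate 11 to 12.9 CPM in GLC replicate 12. Without GLC replicate 12 the log2 fold change was 0.21 for Kif11, 0.15 for Cenpe, 0.47 for Nusap1, 0.33 for Kif20a and 0.05 for Tpx2, and without WT replicate 2 it was 0.11 for Cenpf. Kif20a overlaps exons of Cdc23 on the other strand over 1271 bases, and no source used here states the strand setting of the counting, so its value is uncertain. Exons of Ccna2, Cdca8, Cdc20 and Nusap1 also overlap a gene on the other strand, over 510, 232, 53 and 172 bases. Those of Ube2c overlap Tnnc2 over 592 bases, and those of Plk1 overlap Gm44985 over 156 bases, both on the other strand. Tnnc2 had 12 counts over all libraries, against 145 for Ube2c, and Gm44985 had 1, against 563 for Plk1.

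These mitosis genes varied together from library to library inside both genotypes. GLC replicate 12 was the highest of the 11 libraries for 19 of 23 mitosis genes, against 10.7% of all genes tested. It exceeded every WT library for 20 of 23, against 18.7% of all genes tested. GLC replicate 11 was the lowest GLC library for 15 of 23 and lay under the lowest WT library for 7 of 23. Of all 12404 genes tested, these held for 2457 and 1728. Within WT, replicate 5 was the highest for 17 of 23 and replicate 2 the lowest for 15 of 23, against 2264 and 1800 of the 12404 genes tested. WT replicate 2 was the lowest of all 11 libraries for 10 of 23 mitosis genes, where it was so for 7.22% of all genes tested.

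Summed over the 23 genes, the level was 118, 70.4, 111, 86.0 and 147.9 CPM in WT replicates 1 to 5. In GLC it ran from 79.97 CPM in replicate 11 to 239 CPM in replicate 12, with 132 CPM in replicate 6, 175 in replicate 78, 138 in replicate 9 and 135 in replicate 10. GLC replicate 11 sat among the low WT libraries, GLC replicates 12 and 78 exceeded every WT library, and the other 3 lay between WT replicates 1 and 5. Most of the sum comes from Incenp, Top2a, Mki67 and Mad2l1, with WT means of 20.4, 16.3, 14.97 and 13.5 CPM in a WT mean sum of 106.7 CPM. In bulk RNA fewer dividing cells and less of these transcripts per cell cannot be told apart. The median biological coefficient of variation was 0.445 over mitosis genes and 0.136 over all genes tested. Low genes vary more in general, but 17 of 23 mitosis genes also lay above the value usual for their level, against 25.5% of all genes tested.

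**Figure D4:**
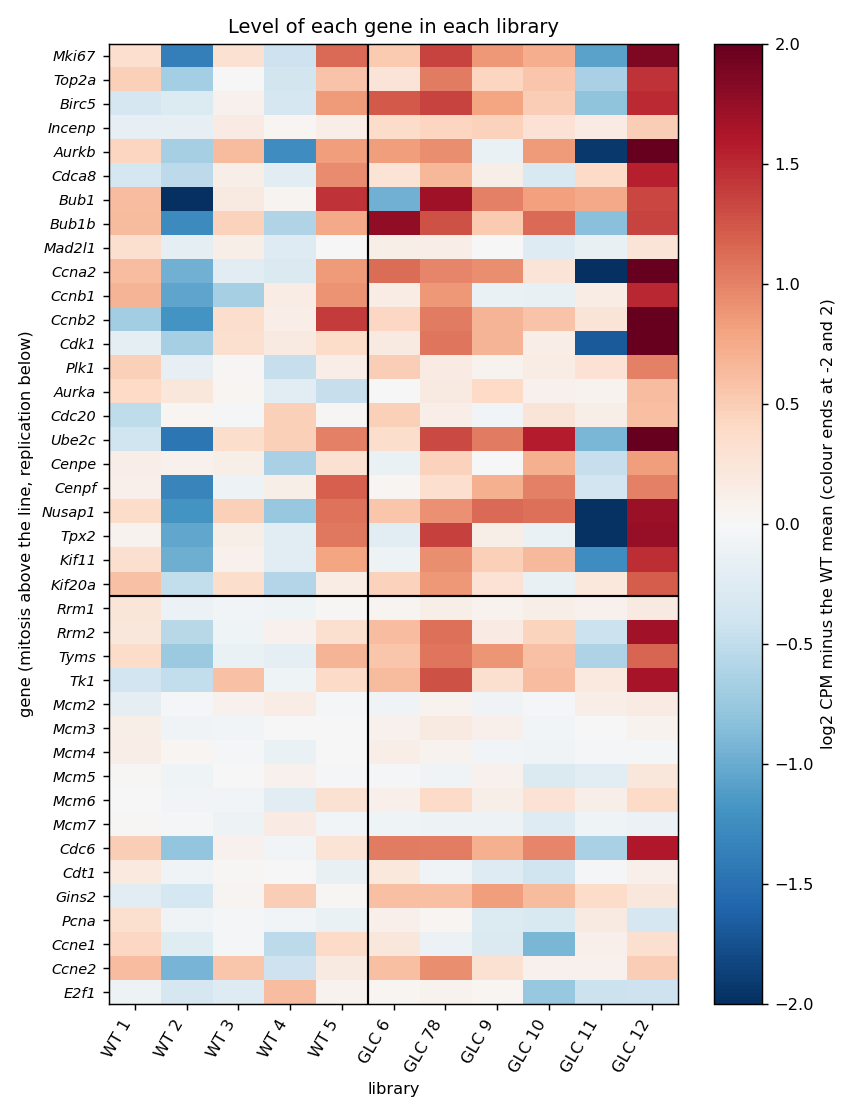
Log2 CPM of each gene in each library minus its WT mean, red above and blue below, with colours ending at -2 and 2, mitosis genes above the horizontal line and WT left of the vertical line. WT 2, WT 4 and GLC 11 lie above the WT mean CPM for 2, 4 and 7 of the 23 mitosis genes, and WT 5 and the GLC libraries other than 11 for 16 or more, while the MCM rows are nearly white.

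Markers of other cells that could divide were read beside these values. Summed plasma cell markers ran from 298 to 831 CPM in WT and from 460.4 to 1049 CPM in GLC, with 0 of 10 genes at 0 counts, and were highest in GLC replicate 78; the group means were 492 CPM (WT) and 693 CPM (GLC). GLC replicate 12 was at 636 CPM and GLC replicate 11 at 460.4 CPM. The largest parts were Xbp1, which T cells also express, with group means of 179.9 (WT) and 180.4 CPM (GLC), and Ighm, an immunoglobulin gene, with 150.3 (WT) and 237 CPM (GLC). Ighg1, another immunoglobulin gene, differed most, with 32.8 ± 36.6 CPM (SD, n = 5) against 124.8 ± 58.0 CPM (SD, n = 6), 5 of 6 GLC libraries above every WT library and an adjusted p of 0.9997 in edgeR. Of the 9 plasma cell markers tested, 6 had a log2 fold change above 0. Derl3 (-0.57, SE 0.31), Prdm1 (-0.11, SE 0.14) and Sdc1 (-0.02, SE 0.27) were below 0. Summed regulatory T cell markers ran from 510.1 to 854 CPM in WT and from 604 to 1176 CPM in GLC, again with 0 of 10 at 0 counts, and their means were 671 CPM (WT) and 848 CPM (GLC). The log2 fold change was above 0 for 10 of 10 of them, with an unadjusted p under 0.05 for Foxp3 (0.64, SE 0.21), Lrrc32 (0.64, SE 0.20) and Nrp1 (0.75, SE 0.25), each with an adjusted p of 0.9997 in edgeR. For the regulatory T cell sum, GLC replicate 12 was at 705 CPM and GLC replicate 11 at 604 CPM, and the highest library was GLC replicate 78. WT replicates 1 and 3, at 799.8 and 854 CPM, exceeded GLC replicate 12 in this sum. Summed B cell markers lay between 6.57 and 18.7 CPM over all libraries, with 0 of 10 at 0 counts and 6 of the 10 too low to test. Summed germinal centre B cell markers had means of 46.6 CPM in WT and 51.6 CPM in GLC, most of it from Fas and S1pr2, which are not particular to B cells, and 3 of 3 tested had a log2 fold change above 0. Rgs13 and Gcsam of that list had 2 counts each over all libraries. Summed macrophage and monocyte markers lay between 4.29 and 6.99 CPM, and 4 of 6 neutrophil and 4 of 6 erythroid markers were at 0 counts. Summed natural killer cell markers had means of 2.68 CPM (WT) and 3.92 CPM (GLC). They were at 6.68 CPM in GLC replicate 78, 5.08 in GLC replicate 12 and 2.00 in GLC replicate 11. Of the 2 tested, Tyrobp had a log2 fold change of 0.99 (SE 0.41) and Klrb1c of -0.11 (SE 0.39). Summed dendritic cell markers had means of 7.69 CPM (WT) and 8.97 CPM (GLC).

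With the mean of the plasma cell list as a covariate, the median log2 fold change of the mitosis genes was 0.20 in place of 0.51. It was 0.33 with the regulatory T cell list and 0.62 with the B cell list. Their part in the result was not tested beyond these fits. The counts of genes with an unadjusted p under 0.05 were 2, 2 and 11 in these fits, where the share of all genes tested was 2.91%, 3.81% and 5.74%, against 4.54% without a covariate. Incenp kept a log2 fold change of 0.35, 0.31 and 0.37 in them.

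The sequence upstream of the genes was read because the mitosis genes varied together. Promoters of mitosis genes are known to carry CCAAT boxes, which NF-Y binds, and the cell cycle homology region (CHR), through which the DREAM complex keeps genes silent in resting cells, while many replication genes carry E2F sites. The RefSeq starts used here (GRCm38.p6) covered 32 of the 40 genes, and Aurkb, Ccna2, Ccne2, Gins2, Incenp, Kif20a, Mcm4 and Tpx2 were not analysed here. The 150 bases before the RefSeq start were searched on both strands for CCAAT, for the CHR word TTTGAA and for the E2F words TTTCCCGC, TTTCGCGC, TTTGCCGC and TTTGGCGC. For Cdc6, Cdca8, E2f1 and Mcm7 all these bases lie inside the gene as GENCODE annotates it, because that annotation starts the gene further upstream. Other windows lie inside their gene in part, with 134 bases of annotated exon for Pcna, 84 for Ccnb1 and 78 for Tk1. The windows of Nusap1 and Plk1 lie before their own gene but hold 150 and 117 bases of annotated exon. The shares below count all these windows. CCAAT was found for 15 of 18 mitosis genes (83.3%) and 7 of 14 replication genes, against 25.3% of 27025 RefSeq genes. The CHR word was found for 6 of 18 mitosis genes (33.3%) and 1 of 14 replication genes, against 9.24% of all. An E2F word was found for 1 of 18 mitosis genes and 3 of 14 replication genes (21.4%), against 1.26% of all. A match is a description of letters, not of a bound site.

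The windows below are those of the genes of smallest p in each role that hold a searched word and at most 30 bases of annotated exon. They run 5′ to 3′ towards the start on the gene's own strand, with matches in capitals. Bub1b (chr2:118598061-118598210, plus strand) holds 1 CCAAT box, Top2a (chr11:99024190-99024339, minus strand) holds 4 CCAAT boxes and 1 CHR word, and Mki67 (chr7:135716380-135716529, minus strand) holds 1 CCAAT box and 2 CHR words.
Bub1b: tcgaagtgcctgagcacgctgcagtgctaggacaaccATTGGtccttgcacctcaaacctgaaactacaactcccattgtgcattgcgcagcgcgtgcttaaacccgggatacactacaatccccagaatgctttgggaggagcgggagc
Top2a: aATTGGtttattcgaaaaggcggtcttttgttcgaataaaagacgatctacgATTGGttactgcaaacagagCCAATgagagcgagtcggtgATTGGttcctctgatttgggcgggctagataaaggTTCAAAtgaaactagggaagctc
Mki67: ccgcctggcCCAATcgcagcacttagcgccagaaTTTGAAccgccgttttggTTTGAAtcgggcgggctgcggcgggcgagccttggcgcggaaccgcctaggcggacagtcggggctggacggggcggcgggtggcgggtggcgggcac
Of the replication genes, Cdc6 (chr11:98908001-98908150, plus strand) holds 1 E2F word, Mcm6 (chr1:128359706-128359855, minus strand) holds 3, of which 2 overlap, with 2 CCAAT boxes, and Rrm2 (chr12:24708104-24708253, plus strand) holds 1 CCAAT box. GENCODE starts Cdc6 at position 98907801, so by that annotation the E2F word of Cdc6 lies downstream of the start.
Cdc6: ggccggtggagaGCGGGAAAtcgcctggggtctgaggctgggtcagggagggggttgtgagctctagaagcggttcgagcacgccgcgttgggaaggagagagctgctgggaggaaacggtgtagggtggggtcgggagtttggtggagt
Mcm6: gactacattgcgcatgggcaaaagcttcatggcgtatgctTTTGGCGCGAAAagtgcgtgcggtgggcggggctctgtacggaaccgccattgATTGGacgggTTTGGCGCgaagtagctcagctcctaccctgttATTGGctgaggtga
Rrm2: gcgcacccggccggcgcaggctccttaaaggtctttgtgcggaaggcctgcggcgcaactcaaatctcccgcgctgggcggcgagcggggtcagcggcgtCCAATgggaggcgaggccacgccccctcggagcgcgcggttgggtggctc

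The replication genes split into an abundant set and a scarce set. The abundant set is the MCM ring, Cdt1, Pcna and Rrm1, and the scarce set is Cdc6, Gins2, Rrm2, Tyms, Tk1, Ccne1, Ccne2 and E2f1. Of the 6 ring subunits, Mcm6 was at 179.6, 172, 171, 154 and 219.9 CPM in WT replicates 1 to 5 and ranged in GLC from 192 CPM in replicate 6 over a median of 205 to 233 CPM in replicate 78. Each of the 6 GLC values exceeded the WT mean, and WT replicate 5 lay inside the GLC range. Its log2 fold change was 0.23 (SE 0.09, unadjusted p = 0.0249, adjusted p = 0.9997 in edgeR).

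The other ring subunits sat closer together. Mcm2 was at 53.1, 58.7, 63.3, 66.6 and 58.4 CPM in WT replicates 1 to 5 and had a lowest value of 56.7, a median of 60.5 and a highest value of 67.1 CPM in GLC. Mcm3 was at 76.8, 67.9, 68.9, 70.8 and 71.6 CPM in WT and had a lowest value of 68.5, a median of 74.9 and a highest value of 80.4 CPM in GLC. For both genes the ranges of the groups nearly coincided.

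Mcm4 was at 104, 98.6, 93.1, 87.4 and 94.6 CPM in WT replicates 1 to 5, with a lowest value of 90.9, a median of 93.4 and a highest value of 104 CPM in GLC. Mcm5 was at 56.5, 52.8, 56.1, 59.1 and 55.0 CPM in WT, with a lowest value of 45.7, a median of 53.9 and a highest value of 65.6 CPM in GLC. Here too the groups overlapped, and GLC spread more widely for Mcm5. Mcm7 was at 81.6, 78.3, 75.4, 90.8 and 78.03 CPM in WT, with a lowest value of 67.2, a median of 75.5 and a highest value of 76.4 CPM in GLC, and 0 of 6 GLC values exceeded its WT mean.

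Log2 fold changes of the ring ran from -0.12 (Mcm7, SE 0.06) to 0.23 (Mcm6). The 95% interval of Mcm4, -0.13 to 0.13, and that of Mcm2, -0.12 to 0.18, hold only small changes in either direction. Exons of Mcm7 overlap those of Cops6 and Ap4m1 on the other strand, whose log2 fold changes were both -0.02. Cdt1 (log2 fold change -0.06, SE 0.10), Pcna (-0.09, SE 0.11) and Rrm1, the large subunit of ribonucleotide reductase (0.10, SE 0.07), were also near 0. The pseudogene Pcna-ps2 drew 2418 counts against 9315 for Pcna, and reads could be split between such copies.

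Cdc6, which loads the ring with Cdt1, was at 2.50, 0.933, 1.84, 1.66 and 2.11 CPM in WT replicates 1 to 5 and ranged in GLC from 1.05 CPM in replicate 11 over a median of 3.61 to 5.54 CPM in replicate 12. Apart from GLC replicate 11, every GLC library lay above every WT library. Its log2 fold change was 0.92 (SE 0.35, unadjusted p = 0.0204, adjusted p = 0.9997 in edgeR), and it was 0.73 without GLC replicate 12.

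Gins2, a subunit of the GINS complex that activates the helicase, was at 2.43, 2.22, 2.97, 4.10 and 2.93 CPM in WT replicates 1 to 5 and ranged in GLC from 3.39 CPM in replicate 12 over a median of 4.44 to 5.24 CPM in replicate 9. GLC replicate 12 was thus the lowest GLC library here, unlike for the mitosis genes, and WT replicate 4 alone of the WT libraries reached into the GLC range. The log2 fold change was 0.55 (SE 0.20, unadjusted p = 0.0158, adjusted p = 0.9997 in edgeR). Exons of Gins2 overlap those of Gse1 on the other strand over 2758 of 4097 bases, Gse1 had 19067 counts against 515 for Gins2, and its log2 fold change was 0.12, so the value of Gins2 is uncertain.

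Enzymes of nucleotide supply other than Rrm1 had their highest level in GLC replicate 12 and their lowest GLC level in replicate 11, like most mitosis genes. Rrm2, the small subunit of ribonucleotide reductase, was at 4.77, 2.73, 3.82, 4.34 and 5.10 CPM in WT replicates 1 to 5 and ranged in GLC from 2.96 CPM in replicate 11 over a median of 5.94 to 13.3 CPM in replicate 12. Its log2 fold change of 0.74 (SE 0.32, adjusted p = 0.9997 in edgeR) was 0.46 without GLC replicate 12. Tk1, thymidine kinase, was at 0.939, 0.861, 1.98, 1.18 and 1.70 CPM in WT and ranged in GLC from 1.48 CPM in replicate 11 over a median of 2.04 to 4.31 CPM in replicate 12 (log2 fold change 0.88, SE 0.34), and its exons overlap those of Afmid on the other strand over 83 bases. Tyms, thymidylate synthase, had a log2 fold change of 0.65 (SE 0.32). WT replicate 2 was the lowest of all 11 libraries for these 3 genes and for Rrm1.

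Genes that control entry into S phase gave no common direction. E2f1, a transcription factor of S phase genes, had the largest fold change below 0 in the fit of all libraries. It was at 3.68, 3.08, 3.26, 6.15 and 4.15 CPM in WT replicates 1 to 5 and ranged in GLC from 2.28 CPM in replicate 10 over a median of 3.48 to 4.15 CPM in replicate 78. WT replicate 4 stood above the rest, and the other WT libraries lay between 3.08 and 4.15 CPM, with the top of both ranges nearly equal (log2 fold change -0.26, SE 0.23). Without WT replicate 4 the value was -0.07, and that of Mcm7 was then -0.08. Ccne1 (cyclin E1) was at -0.10 (SE 0.27) and Ccne2 (cyclin E2), whose exons overlap Ints8 on the other strand, at 0.36 (SE 0.29).

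**Figure D5:**
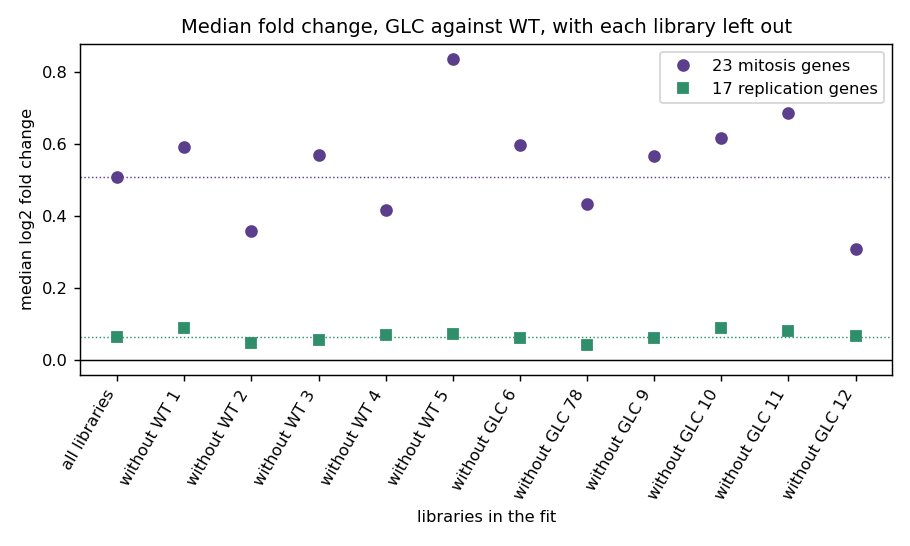
Median log2 fold change of GLC against WT over the 23 mitosis genes (circles) and the 17 replication genes (squares) with all libraries and with each library left out. The mitosis median moves between 0.31 and 0.84 and the replication median between 0.04 and 0.09.

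Further genes of the same processes were read from lists beyond the 40. Of 61 further mitosis genes tested, 47 had a log2 fold change above 0 and the median was 0.17. An unadjusted p under 0.05 was reached by 3 on the higher side and 0 on the lower, against 2.75% and 1.79% of all genes tested, and 0 passed the adjusted threshold. They were Sgo1, a protector of sister chromatid cohesion, at 1.02 (SE 0.38), Ckap2l at 1.01 (SE 0.40) and Racgap1, a regulator of cell cleavage, at 0.44 (SE 0.20). GLC replicate 12 was the highest library for 33 of the 61. Of 60 further replication genes, 31 were above 0 and the median was 0.01. An unadjusted p under 0.05 in edgeR was reached by 2 of the 60 on the higher side and 2 on the lower, beside the same shares of all genes tested.

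Among those replication genes, Pole2, a subunit of DNA polymerase epsilon, was between 5.38 and 6.73 CPM in WT and between 6.88 and 8.24 CPM in GLC, so the groups did not overlap, with a log2 difference of 0.29 (SE 0.12). Pole2 was the 1 gene of the 60 with groups apart. Of all genes tested, 0.153% lay wholly higher and 0.177% wholly lower in GLC. Chek1, the checkpoint kinase that guards replication forks, was at 0.47 (SE 0.21). On the other side, Rpa3, a subunit of the single-strand binding protein RPA, was at -0.36 (SE 0.13), and Dscc1, a subunit of an alternative clamp loader, at -0.74 (SE 0.28). The adjusted p was 0.9997 in edgeR for each of these 4.

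Genes of G1 entry and of cell cycle brakes had medians near 0. Of 13 G1 genes tested, 8 were above 0 with a median log2 fold change of 0.05. E2f3, a transcription factor of S phase genes, was at 0.45 (SE 0.17), Cdk6, a kinase that D cyclins switch on, at 0.46 (SE 0.21), and Cdk2, the partner of cyclin E, at -0.14 (SE 0.06). Of 29 brake genes tested, 12 were above 0 with a median of -0.07. The groups did not overlap for Ccng2, a cyclin found in resting cells, which lay between 121 and 134 CPM in WT and between 97.2 and 119.5 CPM in GLC, a log2 difference of -0.23 (SE 0.06). Ccng2 was the 1 gene of the 29 with groups apart, where 0.177% of all genes tested lay wholly lower in GLC and 0.153% wholly higher. Lin54 was at -0.17 (SE 0.08), and Tob1 and Btg2, antiproliferative genes, were at -0.23 (SE 0.12) and -0.18 (SE 0.10). Other brake genes did not share this: Btg1 was at -0.06 (SE 0.13), Tob2 at -0.07 (SE 0.19), E2f7 at 0.56 (SE 0.46) and E2f8 at 0.95 (SE 0.59). None of these lists held a gene past the adjusted threshold in edgeR (adjusted p = 0.9997 for each gene named here).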

How the data were processed

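The deposited values are whole-number counts of reads per Ensembl gene, not normalized. The authors' tools were STAR and featureCounts on mm10, per the submitters' processing notes. Their versions, the annotation, the strand setting and the treatment of multi-mapping reads are not given in the sources used. Libraries were grouped by title, and 0 columns were left without a sample. No library was a copy of another: over 10860 genes the chi-square per degree of freedom between pairs was at least 9.48.

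Symbols, positions and exon lengths came from GENCODE M21 (GRCm38), which matched 55230 of 55471 identifiers. From these counts edgeR 4.0.16 (R 4.3.3) ran filterByExpr by group (12404 genes, all 40 members among them), TMM scaling, glmQLFit and glmQLFTest on 5 WT and 6 GLC libraries, two-sided, without covariates, with Benjamini-Hochberg adjustment over all genes tested and a threshold of 0.05. This step was tested on simulated data. CPM uses TMM-scaled library sizes, and log2 CPM adds a prior count of 2. Standard errors come from the F statistic.

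The members and lists were chosen with earlier results of these data known. Genes given in full were the 8 of smallest p, the passenger complex, Mcm2 to Mcm7 and the largest fold change in each direction. Other lists gave up to 4 genes of smallest p, a part of which is printed, with further brake genes set beside them. Alternatives tried were DESeq2 1.42.0, limma-voom (limma 3.58.1), also with quality weights, scaling by RLE or upper quartiles, a robust fit, other filters on low counts, omission of immunoglobulin, haemoglobin and mitochondrial genes, 3 cell lists as covariates, libraries left out and an adjusted threshold of 0.1.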

Additional observations from a re-analysis of the deposited data

Results flagged for a closer look

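Within-group values were read for a library far from the others of its group, and 7 of 80 sets of 5 or 6 values (8.75%) held one, where chance gives about 1 in 20. That rate assumes normally spread values in independent sets. Because these genes vary together, 8.75% cannot be read as an excess over it. GLC replicate 12 stood highest for Cdca8 at 8.62 CPM (next highest 4.61), for Ccnb2 at 4.16 CPM (next 1.92) and for Plk1 at 6.85 CPM (next 4.74). Birc5 stood highest in WT replicate 5 at 2.52 CPM (next 1.42), and Cenpe lowest in WT replicate 4 at 2.44 CPM (next 4.16). Mcm7 stood lowest in GLC replicate 10 at 67.2 CPM (next 74.7), and Pcna highest in WT replicate 1 at 84.3 CPM (next 65.5).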

How the results depend on the processing

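The count of the 40 genes past the adjusted threshold was 0 under all 26 alternatives, a threshold of 0.1 among them (39 of the 40 were tested when 1 CPM in 5 libraries was required). Over all genes the count went from 0 to 1 without a filter and to 2 with DESeq2. The median log2 fold change of mitosis genes kept its sign under all 25 alternatives fitted, from 0.17 without WT replicate 2 and GLC replicate 12 together to 0.84 without WT replicate 5. For replication genes it lay between 0.02 and 0.09. The number of genes at an unadjusted p under 0.05, 7 in all libraries, was 12 without a filter and with voom and quality weights, 11 with the B cell list as covariate, 2 with the plasma cell or regulatory T cell list, 2 without WT replicate 2 and GLC replicate 12 together, and 4 without GLC replicates 78 and 9 together; with 1 library left out it ranged from 2 to 15. Under the plasma cell covariate, the regulatory T cell covariate and the fits without 2 named libraries, the log2 fold change changed sign as follows. With the plasma cell list it was -0.12 for Mad2l1, -0.12 for Tpx2 and -0.054 for Mcm4. With the regulatory T cell list it was -0.11 for Mad2l1, -0.046 for Mcm4 and -0.027 for Ccne2. Without WT replicate 2 and GLC replicate 12 it was -0.086 for Mad2l1, -0.17 for Ccnb1, -0.012 for Cenpf, -0.17 for Tpx2 and -0.00640 for Mcm2. Without GLC replicates 78 and 9 it was -0.00538 for Mad2l1. With 1 library left out, signs changed within the ranges -0.046 to 0.0997 for Mad2l1, -0.014 to 0.0697 for Mcm2, -0.028 to 0.033 for Mcm4, -0.096 to 0.0078 for Mcm5, -0.12 to 0.00022 for Cdt1 and -0.22 to 0.026 for Ccne1. The cause was not tested. Mitosis genes had as few as 145 counts over 11 libraries, and the median half-width of their 95% intervals was 0.889 (log2), against 0.237 for replication genes. No paired analysis was possible because the groups share no replicate number.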
